A study of Mus musculus with 2 samples.

Results

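The genes described here are the proteasome genes of neonatal mouse gastrocnemius, taken as every protein-coding gene whose symbol starts with Psma to Psmg followed by a number and which held counts in at least 1 of 2 long-read RNA-seq libraries. There were 47 such genes among 17859 annotated mouse genes with counts, 14734 of them protein-coding. All 47 had counts in replicate 2, and 46 had counts in replicate 1. The annotation holds 50 protein-coding genes with such a name, and the other 3, Psma8, Psmb11 and Psme2b, had 0 counts in both libraries. One of the 47, Psmc3ip, is a meiotic recombination factor that only shares the prefix, which leaves 46 proteasome genes. Both libraries came from gastrocnemius of male B6CASTF1/J mice, the first-generation cross of C57BL/6J and CAST/EiJ, at 4 days of age, with 2 µg of total RNA each. The labels name no treatment, and the study has this 1 group of 2 biological replicates. The labels give each library its own biosample but name only a single donor, which leaves it unstated whether the replicates are separate mice, and the spread between them may be technical.

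The proteasome degrades proteins tagged with ubiquitin. Its 20S core is a barrel with outer rings of alpha subunits (Psma genes) and inner rings of beta subunits (Psmb genes), of which Psmb5, Psmb6 and Psmb7 encode the catalytic ones. The 19S cap binds the tagged protein, removes the ubiquitin and threads the chain into the core; its base holds the Psmc ATPases and ubiquitin receptors, and its lid holds the deubiquitinase Psmd14. In skeletal muscle this machine carries out much of the breakdown of contractile proteins during remodelling and wasting.

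The deposited values are counts of reads assigned to transcript models, totalling 1066347 in replicate 1 and 1100253 in replicate 2, with 998659 and 1026257 on annotated mouse genes. Levels are given as CPM, scaled to these annotated gene counts, so that 1 count is 1.00 CPM in replicate 1 and 0.974 CPM in replicate 2. Each count is 1 read on 1 model, and levels were therefore not divided by transcript length. All 6 skeletal muscle markers were present, with summed levels of 146300 CPM in each library. Single markers differed in both directions beneath this equal sum. By the gene-by-gene test described below, 2 were called higher in replicate 1 and 4 higher in replicate 2, against 4.49% and 5.25% of all genes tested. That test holds counting error only. With at least 4253 counts per marker in each library, it also calls small differences, such as a log2 ratio of -0.23 for Ckm. Atp2a1 had 46440 CPM in replicate 1 and 25890 CPM in replicate 2, and Acta1 had 51110 and 63880 CPM. Among markers of other cells, the summed level of 7 epidermal genes was 4.00 CPM in replicate 1 and 1008 CPM in replicate 2, that of 18 leukocyte genes was 260.3 and 369.3 CPM, and that of 6 fibroblast genes was 36940 and 25010 CPM. The fibroblast sum rested mainly on Col3a1 (21720 and 15320 CPM) and Col1a1 (12510 and 6798 CPM). Dcn (815.1 and 944.2 CPM) and Lum (144.2 and 245.6 CPM) went the other way. Col1a2 (1718 and 1671 CPM) and Pdgfra (33.0 and 28.3 CPM) were slightly higher in replicate 1. In bulk tissue, fewer cells of a type cannot be told apart from less RNA per cell.

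Together the 47 genes held 6546 counts in replicate 1 and 7416 counts in replicate 2, which is 0.656% and 0.723% of the annotated gene counts. The 14 constitutive 20S genes and the 17 genes of the 19S base and lid made up 93.8% and 93.1% of these counts. The 19S genes held 4129 and 4205 counts and the 20S genes 2011 and 2701 counts, so that 20S to 19S counts stood at 0.487 in replicate 1 and 0.642 in replicate 2. Assembly factors, activators and the inducible beta genes had lower summed levels, although in the plot of levels by gene Psme2 and Psmd5 lie beside the lowest 20S and 19S genes, Psmb7 and Psmd11.

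**Figure D1:**
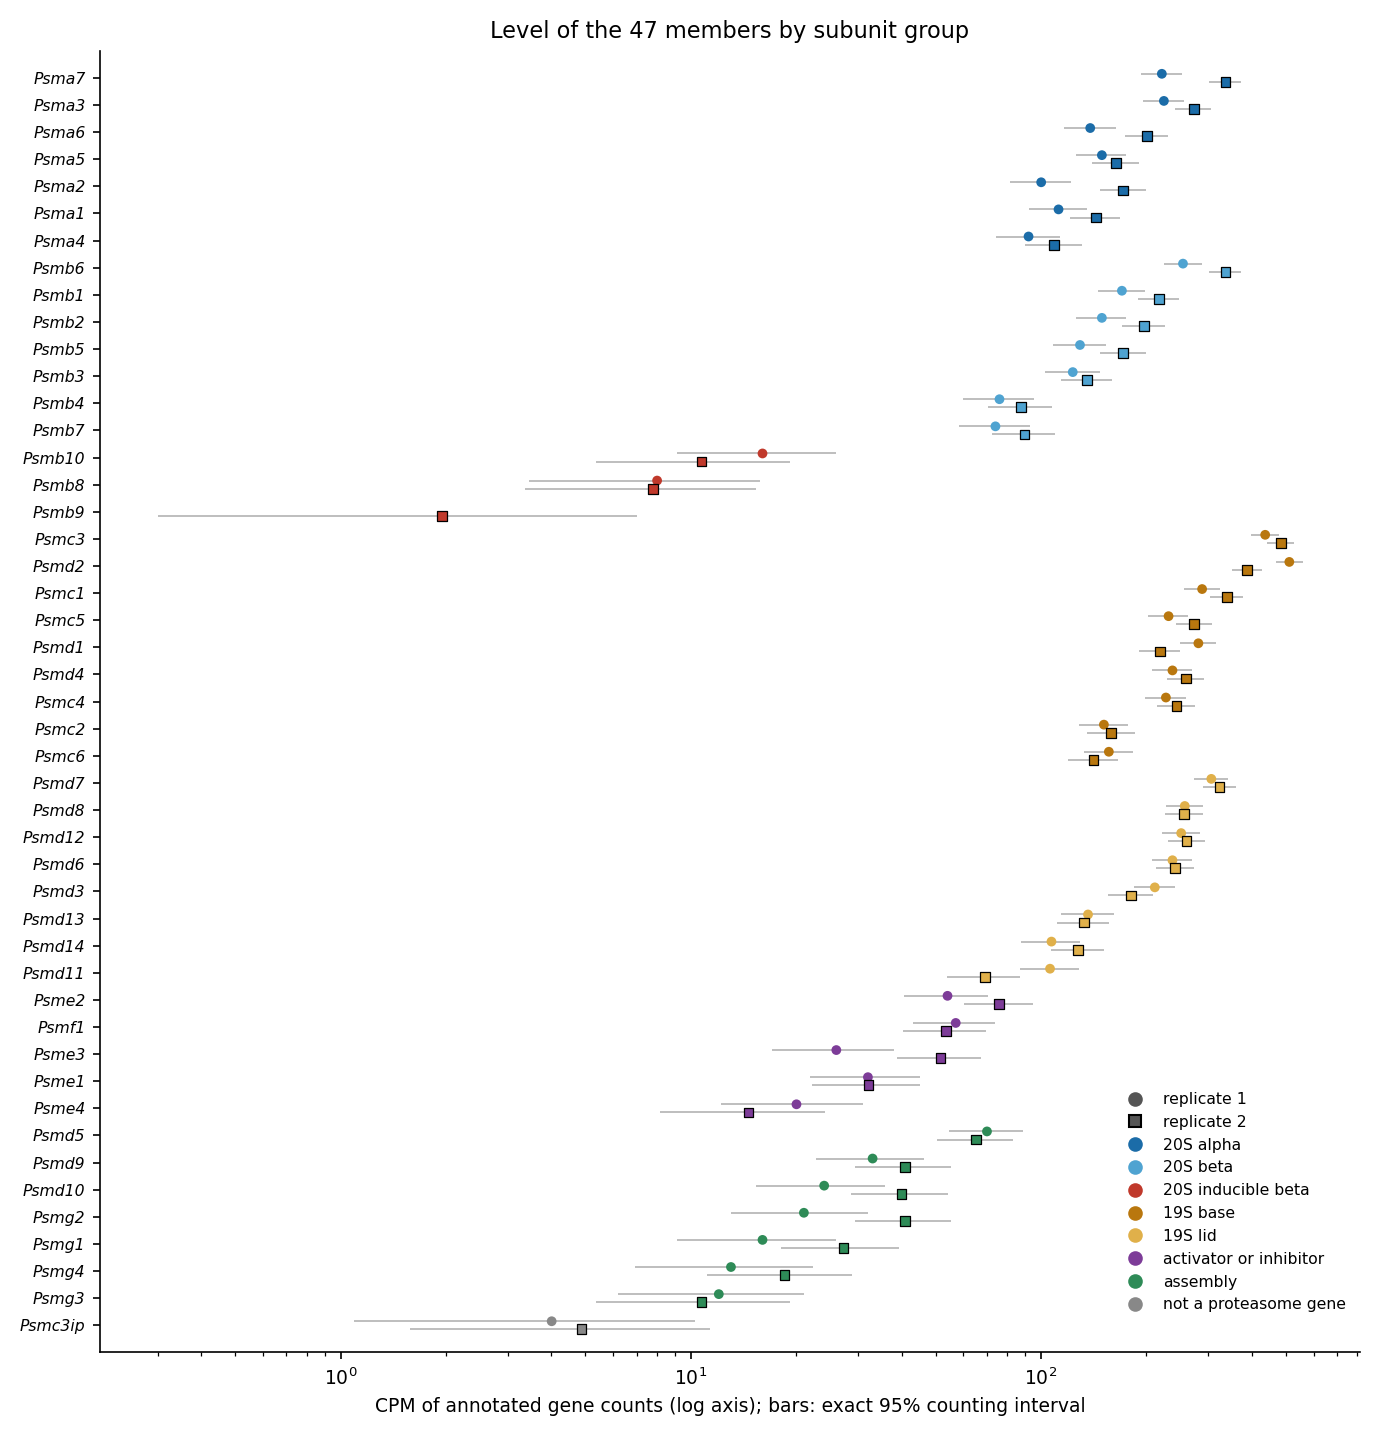
CPM of each of the 47 genes on a log axis, with circles for replicate 1, outlined squares for replicate 2, colours for the subunit group and grey bars for the exact 95% counting interval. The constitutive 20S and 19S genes sit between 81.9 CPM (Psmb7) and 460.4 CPM (Psmc3) on average, and Psmb9, with 0 and 2 counts, has no point for replicate 1.

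The 7 alpha genes of the outer rings summed to 1217 ± 254.5 CPM (SD, n = 2 libraries) and spanned a 2.77-fold range of mean levels. Psma7 was the highest of them, with 221 counts in replicate 1 and 345 in replicate 2. Psma4 was the lowest, with 92 and 112 counts. All 7 had a lower level in replicate 1. Psma8, which replaces Psma7 in the testis, had no count; a count of 0 allows up to 3.00 CPM in replicate 1 and 2.92 CPM in replicate 2.

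The 7 constitutive beta genes of the inner rings summed to 1105 ± 182.6 CPM and spanned a 3.61-fold range. Psmb6, the subunit with caspase-like activity, was the highest with 254 counts in replicate 1 and 345 in replicate 2. Psmb7, the subunit with trypsin-like activity, had 74 and 92 counts, and Psmb4, a subunit without catalytic activity, had 76 and 90, so that these lowest levels lay within their spread of each other. The last of the catalytic subunits, Psmb5, which carries the chymotrypsin-like activity, had 129 and 176 counts. The catalytic subunits stand at equal numbers in the core, whereas the mean level of Psmb6 (295.3 ± 57.9 CPM) lay above that of Psmb7 (81.9 ± 11.0 CPM) by more than the spread between the libraries. Their leading transcript models are 798 and 1160 bp long.

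Cells exposed to interferon replace these 3 catalytic subunits with Psmb8, Psmb9 and Psmb10, which gives the immunoproteasome. The inducible genes held 24 counts in replicate 1 and 21 in replicate 2, or 22.2 ± 2.52 CPM. Their share of the counts of all 6 catalytic genes was 4.99% in replicate 1 (exact Clopper-Pearson 95% interval 3.22 to 7.33%) and 3.31% in replicate 2 (2.06 to 5.02%), a mean of 4.15 ± 1.19%, and these intervals overlap. The pairs were unequal. Psmb10 had 16 and 11 counts, which is 17.8% (10.5 to 27.3%) and 10.7% (5.45 to 18.3%) of its pair with Psmb7. Only 9 and 6 of the Psmb10 counts were on the protein-coding Psmb10-201. Most others were on forms annotated without a coding sequence: Psmb10-205 (2 and 2), Psmb10-207 (2 and 1) and Psmb10-203 (2 and 1). The protein-coding Psmb7-201 held 73 of 74 and 89 of 92 Psmb7 counts. Psmb8 had 8 counts in each library, 5.84% (2.55 to 11.2%) and 4.35% (1.90 to 8.39%) of its pair with Psmb5. Psmb9 had 0 and 2 counts, and the 0 of 254 counts in replicate 1 allows a share of up to 1.18% of its pair with Psmb6. In each library the interval of the Psmb10 pair lay above that of the Psmb9 pair.

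**Figure D2:**
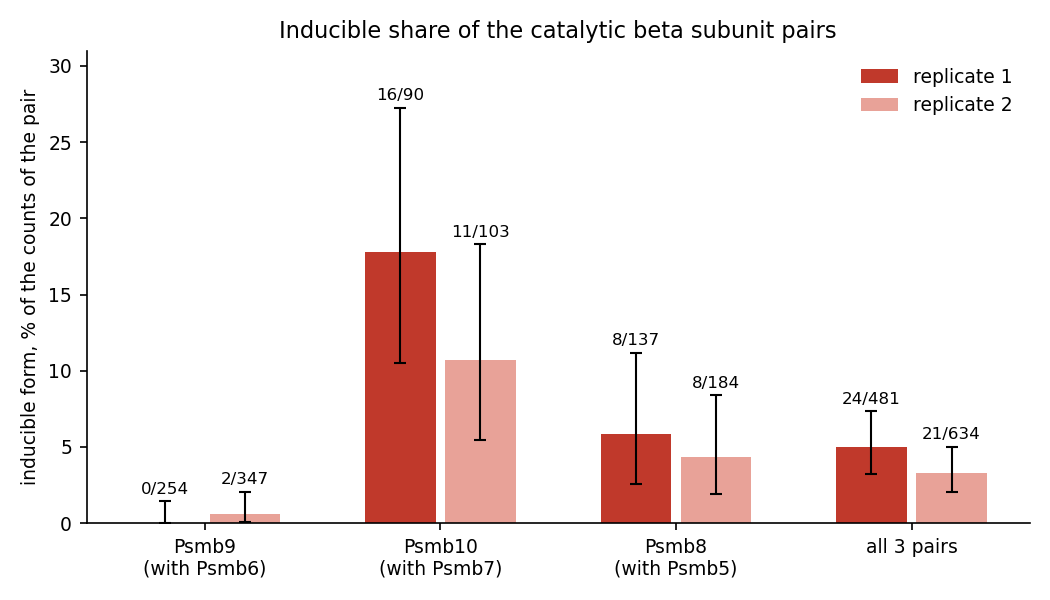
Share of the inducible gene in the counts of each catalytic pair, as a percentage, with dark bars for replicate 1, light bars for replicate 2, black lines for the exact 95% interval and the counts written above. The Psmb10 bars reach 17.8% and 10.7%, and the Psmb9 bars 0 and 0.576%.

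Psmb11, the beta subunit of thymic epithelium, had no count. Leukocyte markers were low but present: 16 of the 18 had counts, S100a9 and Cd79a were at 0, and the highest, Csf1r, had 55 counts in replicate 1 and 62 in replicate 2. Of 9 genes of interferon response and antigen presentation, H2-D1, a class I histocompatibility chain, was the highest with 131 and 201 counts, while Nlrc5, a regulator of class I genes, had 2 and 2. The summed leukocyte level was lower in replicate 1 and the inducible share higher; the part of these cells in the inducible share was not tested. The intervals cover counting error only.

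The 9 genes of the 19S base were the most abundant group, at 2514 ± 10.7 CPM. The ATPase gene Psmc3 had 436 counts in replicate 1 and 497 in replicate 2, the highest mean level of all 47 genes (460.4 ± 33.7 CPM). Psmd2, a large scaffold subunit that docks ubiquitin shuttles, had 511 and 398 counts (449.8 ± 87.6 CPM), and the means of Psmc3 and Psmd2 lay within their spread of each other. The lowest of the group, the ATPase gene Psmc6, had 156 and 145 counts. The 6 ATPases form a single hexameric ring in the complex, and their mean levels spanned a 3.10-fold range.

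The 8 lid genes summed to 1602 ± 15.5 CPM. Psmd7, the inactive partner of the deubiquitinase, was the highest with 306 counts in replicate 1 and 332 in replicate 2. Psmd11, a scaffold subunit of the lid, was the lowest with 106 and 71 counts. Psmd14, the deubiquitinase itself, had 107 and 131 counts. The summed levels had a smaller spread between the libraries in the base and the lid than in the alpha and beta rings. This order did not hold once levels were adjusted for the length of the longest annotated transcript. The log2 ratio of replicate 1 over replicate 2 was then -0.08 for the alpha and 0.35 for the beta genes. It was 0.22 for the base and 0.29 for the lid. That length can exceed the leading model, as for Psmb7 (2849 against 1160 bp). With scaling by the length of the leading model, described below, the median gene ratios were -0.11, 0.02, 0.19 and 0.21 in the same order.

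Other caps and regulators were minor. Psme1 and Psme2, which form the PA28 alpha-beta ring that opens the core without ATP, had 32 and 33 counts and 54 and 78 counts. Psme3, the nuclear PA28 gamma, had 26 counts in replicate 1 and 53 in replicate 2. Psme4, the PA200 activator, had 20 and 15 counts, and Psmf1, the core-binding protein PI31, had 57 and 55 counts. The 5 summed to 208.6 ± 27.4 CPM. Psme2b, a further gene of the Psme2 family, had no count.

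The 7 assembly factors, chaperones that leave the finished complex, summed to 216.4 ± 38.4 CPM. Psmd5, a chaperone of the 19S base, was the highest with 70 counts in replicate 1 and 67 in replicate 2. Psmg3, part of a chaperone pair of the alpha ring, was the lowest with 12 and 11 counts. The others, Psmd9, Psmd10, Psmg1, Psmg2 and Psmg4, lay between 15.8 and 37.0 CPM on average. Psmc3ip had 4 and 5 counts.

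The libraries were compared gene by gene with Fisher's exact test (two-sided), with Benjamini-Hochberg adjustment over the 11027 genes with at least 10 counts in sum and a threshold of 0.05. The test holds counting error only and compares 2 libraries, not conditions. With edgeR's exact test and a preset biological coefficient of variation of 0.1, none of the 6 calls among the proteasome genes held. Over all genes tested, 1.56% were called in that setting. It left 6 proteasome genes at an unadjusted p under 0.05. Of the 45 proteasome genes tested, 6 were called (13.3%), against 9.74% of all genes tested. Psmd2 was the 1 gene called higher in replicate 1, where 4.49% of all genes were, with a log2 ratio of replicate 1 over replicate 2 of 0.40 (95% interval 0.21 to 0.59, adjusted p = 0.000942, Fisher's exact test). The 5 genes called higher in replicate 2, where 5.25% of all genes were, were Psma2, Psma6, Psma7, Psmb6 and Psme3. Psma2 had 100 counts in replicate 1 and 176 in replicate 2, a log2 ratio of -0.78 (-1.15 to -0.41, adjusted p = 0.000434, Fisher's exact test). Psma7 had a log2 ratio of -0.60 (adjusted p = 4.34e-05) by the same exact test. Psma6, with 138 and 206 counts, had a log2 ratio of -0.54 (adjusted p = 0.0112), and Psmb6 one of -0.40 (adjusted p = 0.0128), both by that exact test. Psme3 had a log2 ratio of -0.99 (-1.72 to -0.29, adjusted p = 0.0480, Fisher's exact test). All 7 epidermal markers were also called higher in replicate 2, and 6 of them had 0 counts in replicate 1; their part in these differences was not tested.

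The ratios lay lower in the core than in the cap. All 14 constitutive 20S genes had a ratio below 0, with a median of -0.35 and a range of -0.78 to -0.13. The 17 genes of the 19S base and lid had a median of -0.05, with 7 above 0 and 10 below. The median over all genes tested was 0.04. The same groups differ in transcript length: the leading models had a median length of 1201 bp in the alpha genes and 899 bp in the beta genes, but 1591 bp in the base and 1743 bp in the lid.

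The libraries differed by length across the whole transcriptome. Over 6034 protein-coding genes with at least 20 counts in each library, Spearman's rho between the log2 ratio and the length of the leading model was 0.50, and over 39 proteasome genes with such counts it was 0.49. It was 0.73 over the 17 genes of the 19S base and lid and 0.06 over the 14 genes of the 20S core. These are descriptions over genes that share both libraries. Among genes with a leading model under 1000 bp, the median ratio was -0.42 over 460 protein-coding genes and -0.41 over 6 proteasome genes. From 1000 to 1500 bp it was -0.33 over 646 genes and -0.22 over 14 proteasome genes, and from 1500 to 2000 bp it was -0.16 over 822 genes and -0.11 over 8. From 2000 to 3000 bp it was 0.04 over 1594 genes and -0.07 over 8 proteasome genes, and from 3000 to 5000 bp it was 0.21 over 1922 genes and 0.10 over 3.

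**Figure D3:**
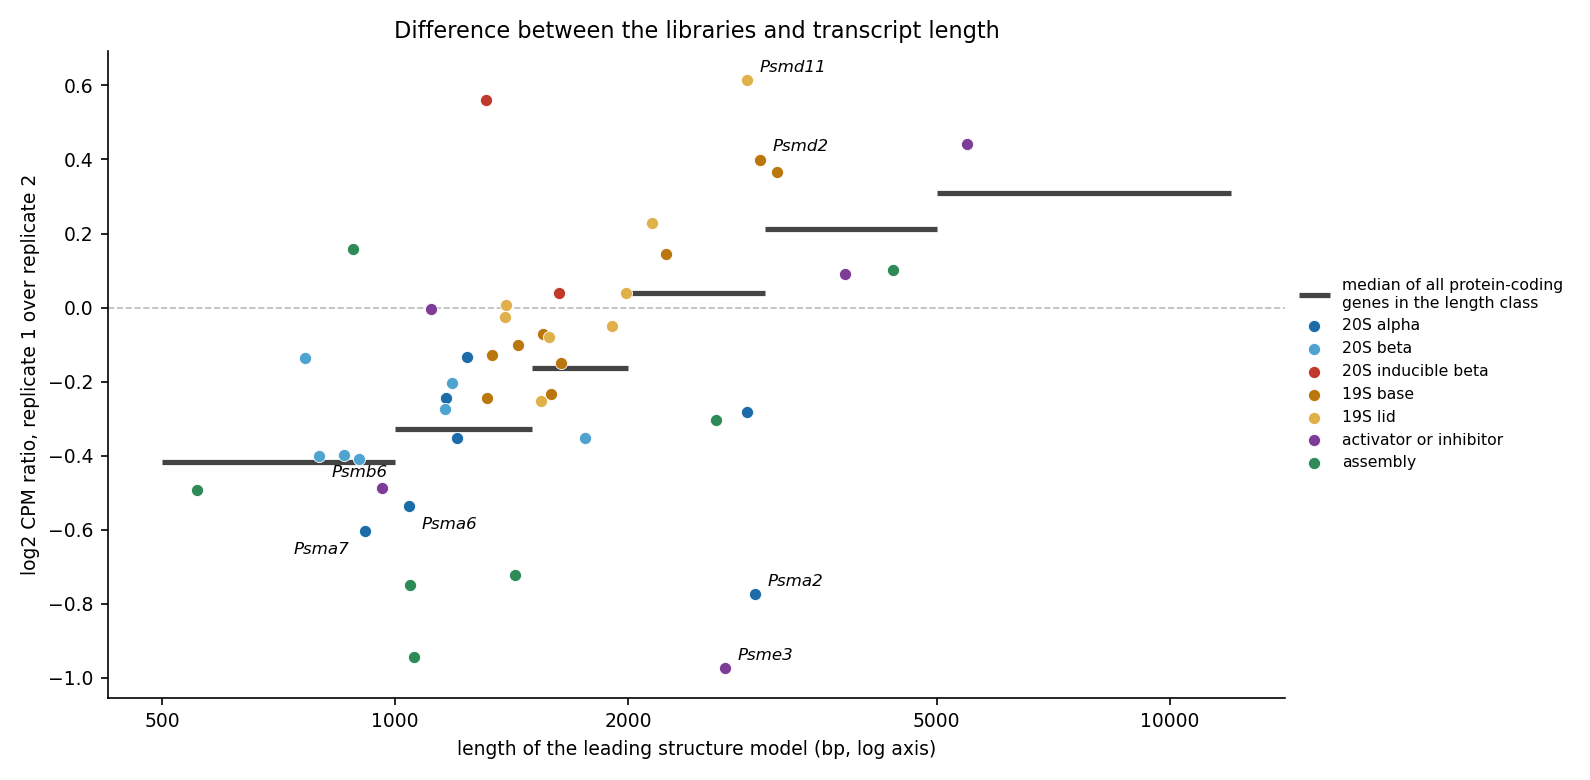
Log2 ratio of CPM, replicate 1 over replicate 2, against the length of the leading transcript model in bp on a log axis, for the 45 proteasome genes tested, with black lines for the median of all protein-coding genes in each length class. Psmb2, Psmb5 and Psmb6, all under 1000 bp, lie near the line at -0.42, Psmb3 (-0.14) lies above it and Psma7 (-0.60) below it, while Psma2 and Psme3 lie below the line at 0.04 that spans 2000 to 3000 bp.

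When the scaling of the libraries was set within 20 bins of that length, an alternative chosen after seeing the data, 5 of the 14 constitutive 20S genes had a ratio below 0, with a median of 0.02 over the 14. In the same setting 8 of 9 genes of the 19S base and 8 of 8 of the lid had a ratio above 0, with a median of 0.19 over both, so that the core still lay below the cap. Psma2 and Psme3 were the 2 of 45 genes called, against 5.50% of all genes tested. Psmd2 then had a log2 ratio of 0.23 (adjusted p = 0.171, exact binomial test) and Psmb6 one of 0.02. The models of Psma2 and Psma3 are annotated at 2911 and 2846 bp, and the deposited tables do not record how much of a model each read covered. With bins of coding length instead, which is 702 bp for Psma2, 11 of the 14 genes had a ratio below 0. The medians were -0.10 in the core and -0.04 in the 19S base and lid. Psma2 then had a log2 ratio of -0.52 (adjusted p = 0.0628, exact binomial test). None of the 45 genes was called, against 5.28% of all genes tested, with 5 at an unadjusted p under 0.05. Whether the 20S to 19S balance differed between the libraries cannot be told apart from the difference in length between the libraries.

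Transcript models fall into 5 classes. Known models are in the annotation. ISM models match only a stretch of the splice junctions of a known transcript, down to a single exon, and may hold intron bases. NIC models join known splice sites anew, NNC models use at least 1 splice site outside the annotation, and Genomic models are the remainder. Known, NIC and NNC models held 91.8% of the proteasome counts in replicate 1 (exact 95% interval 91.1 to 92.4%) and 92.3% in replicate 2 (91.7 to 92.9%). Over all protein-coding genes this share was 87.4% and 87.5%. Known models alone held 88.2% and 88.8%, against 72.4% and 75.4% over all protein-coding genes. The 47 genes had 614 structures, grouped by intron chain, with all single-exon models of a gene taken as 1 structure. Of these, 190 occurred in both libraries and 349 rested on 1 count.

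A single structure led in most genes. Among the 38 genes with at least 20 Known, NIC and NNC counts in each library, the same intron chain led in both libraries in all 38 (95.4% of the 5351 genes tested also kept their leading chain), it was annotated as protein-coding in each, and it held at least 90% of those counts in both libraries in 28. The median share of the leading chain was 95.0% in replicate 1 and 94.8% in replicate 2, against 86.7% and 86.1% over the 5351 genes tested. None of the 38 shares was called different between the libraries by the two-sided Fisher's exact test adjusted over those genes, where 0.449% of all genes were. At an unadjusted p under 0.05 were 2 of the 38, Psmd10 and Psma5. There was 1 with at least 50 counts in each library, and 1 with splice sites matched within 5 bases. The share of all genes at that unadjusted threshold is not given here, so these 2 are not read as different.

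**Figure D4:**
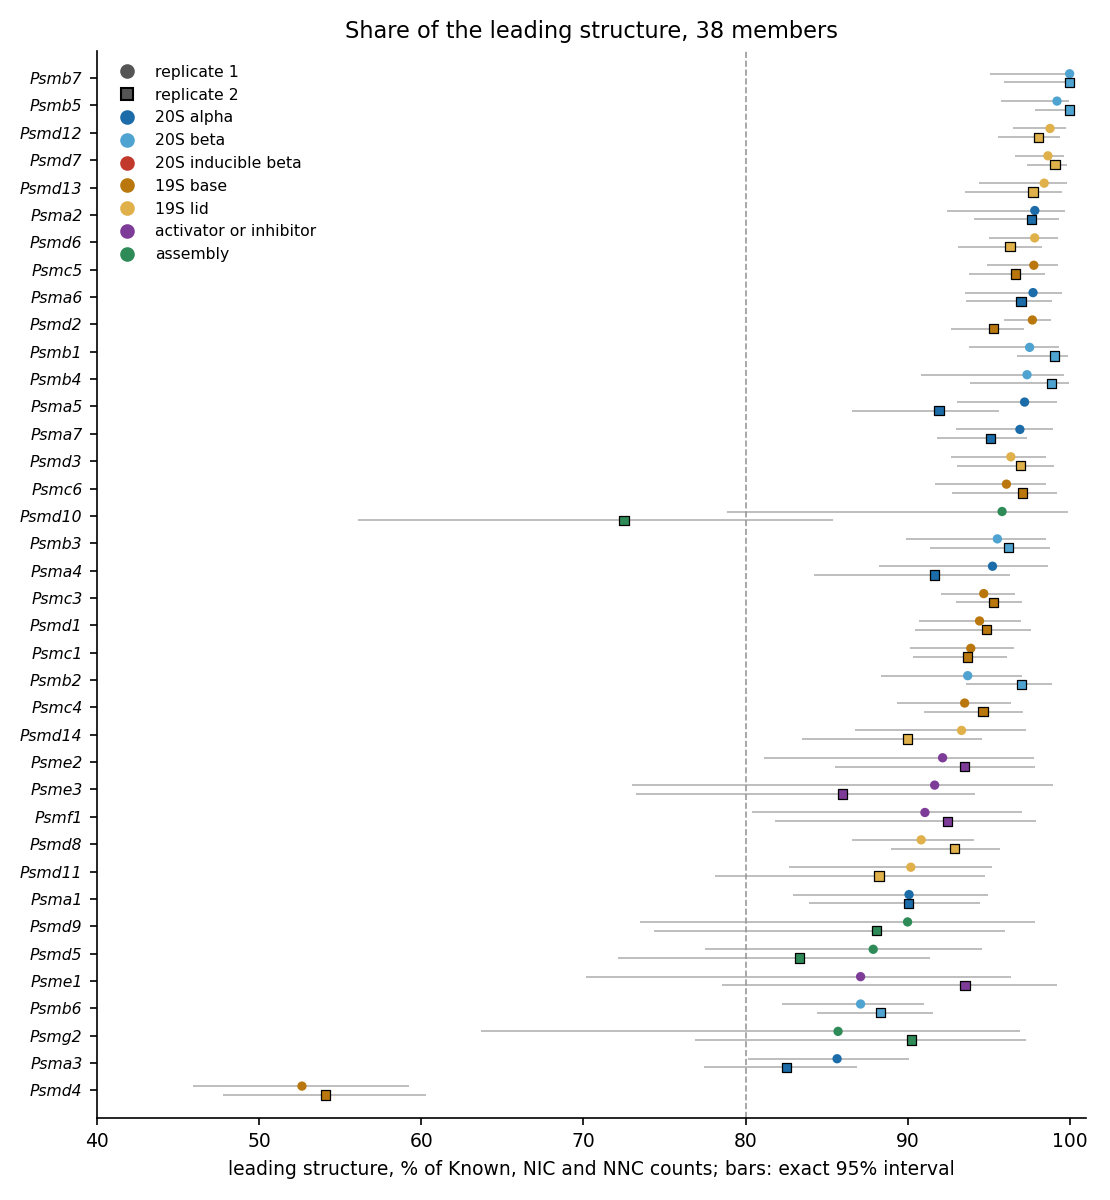
Share of the leading structure in the Known, NIC and NNC counts of 38 proteasome genes, as a percentage, with circles for replicate 1, outlined squares for replicate 2 and bars for the exact 95% interval. The dashed line at 80% separates Psmd4 in both libraries, and Psmd10 in replicate 2, from the others.

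Psmd4 encodes the ubiquitin receptor of the base, known in mouse to be made in several splice forms, and it was the 1 gene with a pair of near-equal structures. Psmd4-202 had 120 counts in replicate 1 and 139 in replicate 2, and Psmd4-201 had 91 and 103. Psmd4-201 was 43.1% of this pair in replicate 1 (exact 95% interval 36.4 to 50.1%) and 42.6% in replicate 2 (36.3 to 49.1%). They differ by a splice donor that adds 9 bases, or 3 codons in frame, to Psmd4-201. The stretch around the junction is shown for both because this choice splits the gene's counts, at chr3:95033741-95033941 on the minus strand of GRCm38 (from GENCODE M21 transcripts, like the junctions that follow), with the added bases in capitals.
Psmd4-201: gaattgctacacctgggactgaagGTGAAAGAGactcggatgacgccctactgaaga
Psmd4-202: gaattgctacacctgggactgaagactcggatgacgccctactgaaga
The added bases start with GT, so the shorter form uses a donor placed just before them and the longer form a donor just after. Another form, Psmd4-203, had 2 and 3 counts.

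Psma3, an alpha subunit, had its second structure in Psma3-201, which the annotation gives as a target of nonsense-mediated decay, the pathway that removes transcripts with an early stop codon. It was named after its values were seen. Psma3-201 had 18 counts in replicate 1 and 19 in replicate 2, against 179 and 222 for Psma3-202, which is 9.14% (5.51 to 14.1%) and 7.88% (4.81 to 12.04%) of the pair. It uses an acceptor 5 bases further on, which breaks the reading frame and leaves an annotated coding length of 120 bp, against 765 bp in Psma3-202. The junctions are shown because the shift is small, at chr12:70978792-70983347 on the plus strand, with the bases that Psma3-201 lacks in capitals.
Psma3-202: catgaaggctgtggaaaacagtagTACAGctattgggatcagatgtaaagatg
Psma3-201: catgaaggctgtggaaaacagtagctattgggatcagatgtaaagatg
The capitals end in AG, as acceptors do, so that both forms can be spliced from the same intron. Another decay-annotated form, Psma3-206, had 0 and 6 counts.

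Psmd8, a lid subunit, had an unannotated NNC structure with 18 counts in replicate 1 and 14 in replicate 2, beside 228 and 235 for Psmd8-202. It made up 7.00% (4.20 to 10.8%) and 5.32% (2.94 to 8.77%) of the gene's counts. It joins the first exon to a new acceptor inside the fourth, which leaves out 210 coding bases, or 70 codons in frame. That stretch is printed because no annotated Psmd8 transcript holds this junction, with the bases left out in capitals, within chr7:29177178-29180296 on the minus strand, followed by the join.
Psmd8-202: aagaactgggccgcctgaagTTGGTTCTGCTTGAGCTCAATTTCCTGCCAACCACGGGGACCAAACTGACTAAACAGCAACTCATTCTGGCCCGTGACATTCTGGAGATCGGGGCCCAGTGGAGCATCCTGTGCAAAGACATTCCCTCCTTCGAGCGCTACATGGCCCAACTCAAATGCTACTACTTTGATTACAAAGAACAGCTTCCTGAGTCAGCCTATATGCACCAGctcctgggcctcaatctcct
Psmd8 NNC: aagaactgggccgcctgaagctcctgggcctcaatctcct
The capitals end in CAG, the usual end of an intron.

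**Figure D5:**
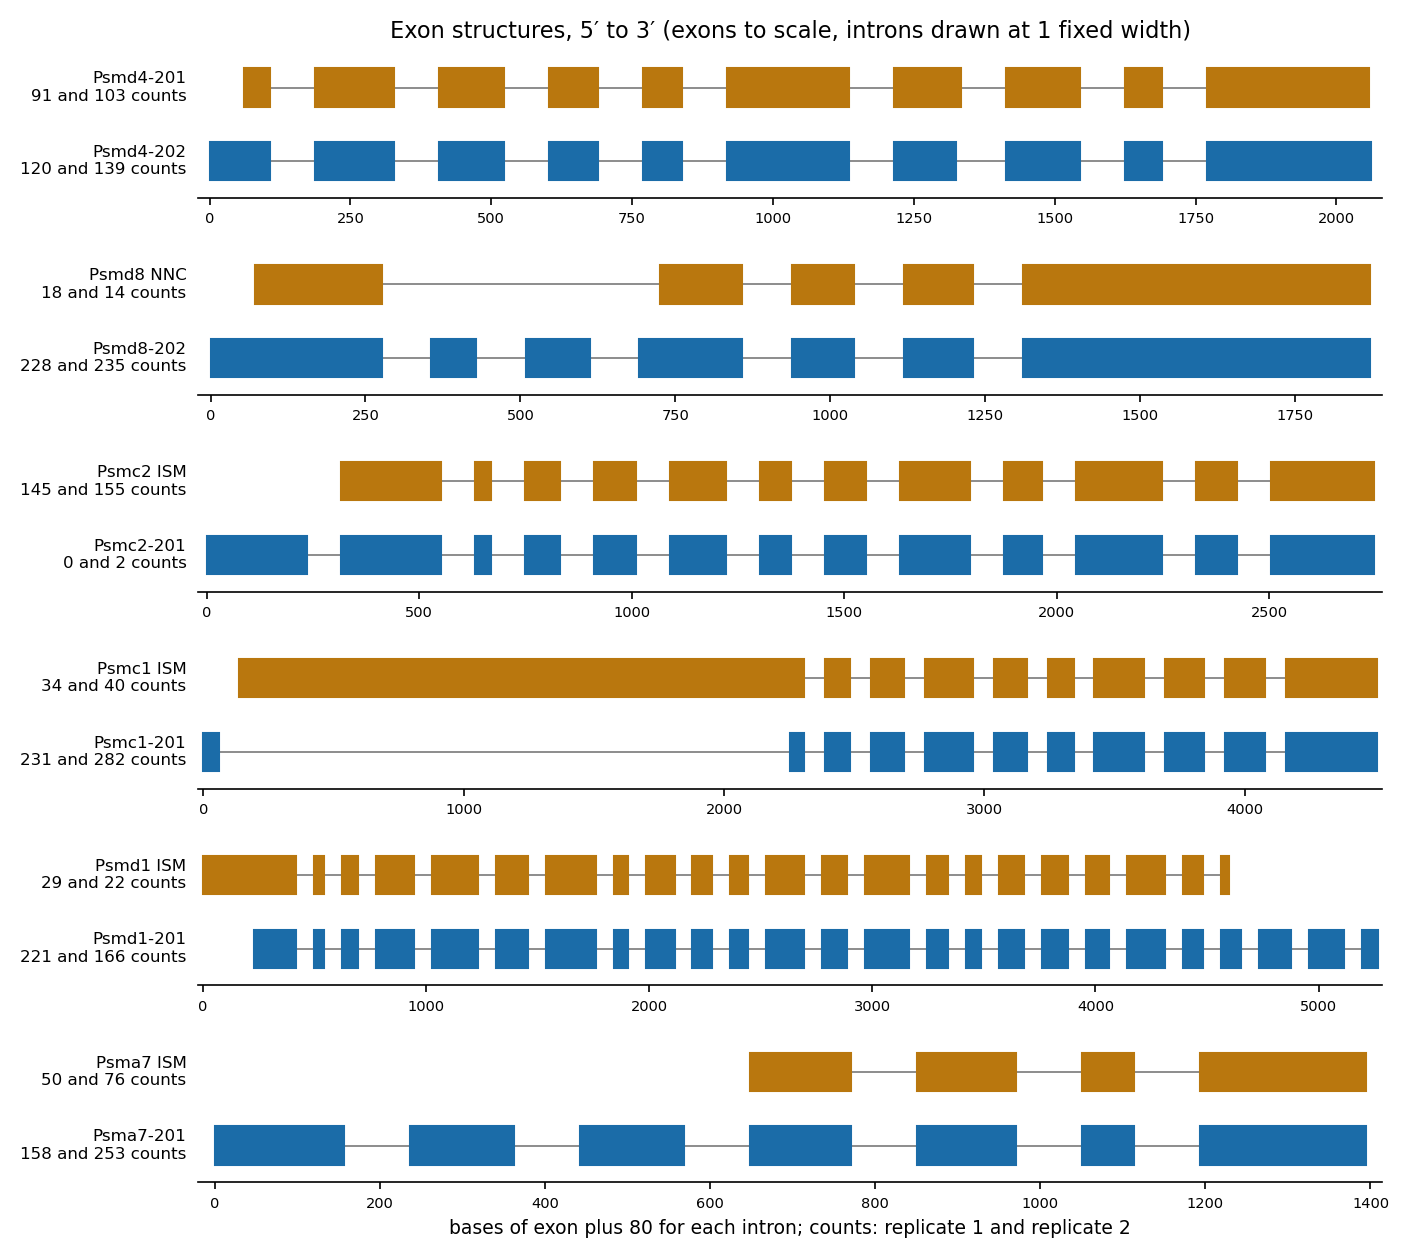
Exon structures of 6 proteasome genes from 5′ to 3′, with exons to scale in bp and each gap that holds no exon of either structure drawn at 1 fixed width; the upper structure of each pair is the alternative and the lower one the annotated transcript it is compared with, with counts in replicate 1 and replicate 2. The Psmc2 model without exon 1 had 145 and 155 counts, and the annotated Psmc2-201 had 0 and 2.

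Psmc2, an ATPase of the base, was counted almost wholly on a model that lacks the first annotated exon. This 12-exon ISM model had 145 of 151 counts (replicate 1) and 155 of 163 counts (replicate 2), 96.0% (91.6 to 98.5%) and 95.1% (90.6 to 97.9%). The annotated 13-exon transcript Psmc2-201 had 0 and 2 counts. The model starts at the first base of exon 2 (21786650 on chromosome 5), and a model's end is not that of each read. RefSeq lists 2 starts for Psmc2, and the second, at 21786747, lies inside that exon. The last 60 bases before each RefSeq start are shown because the counted model begins at the exon that holds the second, on the plus strand of GRCm38.p6, with matches to CCAAT or CCGGAAG in capitals (CTTCCGG is CCGGAAG on the other strand).
Psmc2 first start, chr5:21785215-21785274: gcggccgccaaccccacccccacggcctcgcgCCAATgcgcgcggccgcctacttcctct
Psmc2 second start, chr5:21786687-21786746: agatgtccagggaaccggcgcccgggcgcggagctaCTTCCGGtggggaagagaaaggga
The 250 bases before the first start also hold a CCGGAAG match. The annotated coding sequence starts at 21786689, so that the second stretch lies almost wholly within it, and the model holds all 1425 coding bases.

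Several other ISM structures recurred in both libraries in like shares. For Psma7, a 4-exon model that begins with the fourth of 7 exons had 50 of 221 counts (replicate 1) and 76 of 345 counts (replicate 2), 22.6% (17.3 to 28.7%) and 22.03% (17.8 to 26.8%). It holds 396 of the 744 coding bases. For Psmc1, an ATPase gene, a 10-exon model that begins within the first intron had 34 and 40 counts, 11.8% and 11.5%, and 2116 bases of that intron in its first exon. For Psmd1, the largest base subunit, a 22-exon model without the last 3 exons had 29 and 22 counts, 10.3% and 9.82%.

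Shorter or rarer structures filled in the rest. Psmd3, a lid subunit, had an 11-exon ISM model with 13 and 12 counts, and Psmc3 a single-exon set of ISM and Genomic models with 14 and 12. Psmd2 had a single-exon ISM structure with 10 and 7, and Psmb3 a 5-exon ISM model with 7 and 5. Psma5 had a 2-exon ISM model with 5 and 6. Psmc4 had a 10-exon NIC model with 6 and 5 counts that keeps a 142-base intron, and Psma3 had Genomic single-exon models with 10 and 5. With these, 12 unannotated structures had at least 5 counts in each library.

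Psmd10, the assembly chaperone also called gankyrin, had Psmd10-201 at 23 of 24 counts (replicate 1) and 29 of 40 counts (replicate 2), a share of 95.8% and 72.5% (adjusted p = 0.751, Fisher's exact test over 5351 genes). The second form, Psmd10-202, lacks 79 coding bases and had 1 and 11 counts. Psmb6-202, a 2-exon form annotated as a retained intron, had 26 and 38 counts, 10.2% and 11.0% of the Psmb6 counts. It holds no junction that Psmb6-201 lacks, so the intron chain does not separate this form from partial reads of Psmb6-201. A 9-exon NIC structure of Psma5 had 2 counts in replicate 1 and 8 in replicate 2; its first exon is that of the lincRNA Gm40123, 30069 bp before the annotated Psma5 start. The last 2 were also named after their values were seen. Psme4, whose longest annotated transcript has 6491 bp, was counted mostly on partial models, with 8.57% of its counts over both libraries on Known, NIC and NNC models.

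Among the 300-base RefSeq windows around gene starts (250 bases before and 50 after), 40 of the 47 genes were matched. CCGGAAG, a core letter string of ETS family sites, was present on either strand in 15 of the 40 genes (37.5%), Psmc3ip included and among them Psma6, Psmc1, Psmd2, Psmd4 and Psme3, against 18.04% of 11365 detected protein-coding genes matched and 8.86% of all 32851 windows. CCAAT was present in 14 (35.0%), against 42.4% of those genes and 37.4% of windows. TGACNNNGC, a string held by antioxidant response elements, was present in 6 (15%), namely Psmb5, Psmb6, Psmc6, Psmd12, Psmd9 and Psme4, against 16.8% of those genes and 12.4% of windows. None of the 3 strings contains another. These are letter matches and not binding sites.

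Of 23 annotated partner genes that act beside these subunits, 22 were tested. By the adjusted Fisher's exact test, 4 were called higher in replicate 1 and 1 higher in replicate 2, against 4.49% and 5.25% of all genes tested. That test holds counting error only, and these calls were not examined with edgeR's exact test or with scaling by length. The part of the length difference between the libraries in them was not tested. Vcp, the ATPase that pulls tagged proteins from complexes, was the highest of the list, with 832 counts in replicate 1 and 613 in replicate 2, and was among the 4. Nfe2l1, the transcription factor that induces proteasome genes, had 347 and 221 counts, Zfand5, which stimulates the 26S particle, 299 and 192, and Ubqln4, a shuttle, 189 and 121, and all 3 were called higher in replicate 1. Pomp, the maturation factor of the 20S core, was called the other way with 90 and 149 counts. Midn was the lowest with 4 and 3 counts.

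Of 41 annotated pseudogenes whose closest coding transcript by BLAST was that of a proteasome gene, 8 had counts, with 11 in all in replicate 1 and 12 in replicate 2, or 0.168% and 0.162% of the counts of both kinds. The highest, Gm4118, closest to Psma2, had 6 and 6 counts at 91.9% identity. Gm13835, with 100% identity to Psma3, had 3 and 2 counts, and copies of Psma5 (98.6%) and Psmb5 (98.9%) had at most 1 count in either library. How the authors' counting divided reads between such copies is not given in the sources used here.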

How the data were processed

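Long-read RNA-seq was made from total RNA of gastrocnemius, with ERCC and SIRV spike-ins, in 2 libraries. Per the file headers and their readme, the authors deposited whole-number read counts per transcript model in TALON format, on mm10 with GENCODE M21. The model lengths, exon numbers and exon coordinates in the deposited files are other values, not measurements of single reads. No aligner, tool version or sequencing platform is given in the sources used here.

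Counts were summed per gene over all classes, leaving spike-ins and unannotated loci out of the denominators. Structures were grouped by intron chain, each splice site matched exactly, and all single-exon models of a gene were taken as 1 structure. Tests were two-sided Fisher's exact tests with Benjamini-Hochberg adjustment over all genes tested, at 0.05, for genes with at least 10 counts in sum and for leading chains with at least 20 counts in each library. Intervals are exact Clopper-Pearson 95% intervals of counting error only; a count of 0 allows up to 3 counts. Ratios after length scaling used exact binomial tests and 0.5 added to each count. Sequences came from GENCODE M21 transcripts and RefSeq windows of GRCm38.p6. Python 3.11.15, scipy 1.17.1, R 4.3.3, edgeR 4.0.16, DESeq2 1.42.0 and BLAST 2.17.0 were used. The test scripts were run on simulated counts that held counting error only. Such counts hold no difference by length between libraries, so the simulation checks the code and not the calls.

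Named were the highest and lowest gene of each group, every called gene, genes without counts, the catalytic pairs, the activators, structures of genes whose leading chain held under 80% of counts, and unannotated chains with at least 5 counts in each library; of the partner list, the called, highest and lowest genes. Other structures were named after their values were seen. The genes, lists and tests were chosen with earlier results of these data known. Some items of the lists and some sequences are not reported here.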

Additional observations from a re-analysis of the deposited data

How the results depend on the processing

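The count of 6 proteasome genes called between the libraries was 5 to 8 under other library scalings, count minima and transcript classes. The share called over all genes tested also varied there, from 5.05% without a count minimum to 12.1% with at least 20 counts in sum. Psmd2, Psma2, Psma6, Psma7 and Psmb6 were called under each of those settings. The count was 0 by edgeR's exact test at a preset coefficient of variation of 0.1 and 0 at 0.2. Over all genes tested, 1.56% and 0.508% were called there. Of the proteasome genes, 6 and 0 had an unadjusted p under 0.05. The count was 2 with scaling within bins of leading model length and 0 with bins of coding length, both chosen after seeing the data. Over all genes tested, 5.50% and 5.28% were called in these settings. Psmb6 then had a log2 ratio of 0.0203 in the bins of leading model length. Without a count minimum the adjusted p of Psme3 was 0.0765, and with Known and ISM models alone 0.161 (Fisher's exact test). No leading chain was called under any of the 4 other settings. Adjusted for the length of the longest annotated transcript, the level of the 20S beta genes was 1491 CPM. In the same setting the 19S base was at 2117 CPM and the 19S lid at 1441 CPM. The lid was at 1774 CPM in Known, NIC and NNC models alone. The cause of these shifts was not tested. Leaving out either replicate gave 1037 to 1397 CPM for the alpha genes, 976.3 to 1235 for beta, 20.5 to 24.03 for inducible beta, 2506 to 2521 for the base, 1591 to 1613 for the lid, 189.3 to 228.0 for activators and 189.3 to 243.6 for assembly factors. The inducible share ranged from 3.31 to 4.99% and the share of Known, NIC and NNC counts from 91.8 to 92.3%. Among the ratios of the called genes under the other settings, 36 kept their direction and their side of the threshold. Another 23 kept their direction but were no longer called, and 1 was reversed. Of the group levels, 38 moved by less than the spread between replicates and 4 by more. Leaving out 1 of 2 replicates cannot move a mean beyond that spread. Those settings, for levels and shares alike, are therefore no test of stability. The count of 20S genes with a ratio below 0 was 14 in each setting without length bins, 5 with bins of leading model length and 11 with bins of coding length. The beta genes, lower in replicate 1, had a log2 ratio of 0.35 once adjusted for the longest annotated transcript. Their median gene ratio was 0.02 with bins of leading model length. No paired analysis was possible because there is 1 group. At 1 CPM or so per count, Psmb9, with 2 counts in sum, could not show a difference between the libraries.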
